A study of Mus musculus with 4 samples.

Results

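The 10 genes described here encode the core of the TGF-beta pathway: the ligands Tgfb1, Tgfb2 and Tgfb3, the receptors Tgfbr1, Tgfbr2 and Tgfbr3, the latent TGF-beta binding proteins Ltbp1 and Ltbp2, the signal transducer Smad3 and the inhibitor Smad7. They were taken by symbol, and each symbol matched 1 of the 21884 genes counted. Nuclear RNA was sequenced with a droplet method that counts unique molecular identifiers (UMIs) in each nucleus, from 4 whole hearts of male wild-type (WT) C57BL/6J mice, with 1 heart in each library. In 2 hearts the father had been injured (Injured_Father_Injured_offspring, called injured-father hearts here), and in the other 2 the father had not (Uninjured_Father_injured_offspring, called uninjured-father hearts). All 4 offspring were themselves injured on day 1 after birth and their hearts were taken 21 days later. There were thus no uninjured offspring to set the levels against, and the kind of injury is not named in the sources used here. Whether the hearts of a group share a father or litter is not stated there either. An antibody to Ter119, a marker of red blood cells, had been used to sort out blood cells. Nuclei of lymphocytes and of macrophages or monocytes were still read, as described further on.

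TGF-beta is secreted in a latent form. The mature ligand stays wrapped in its own propeptide, and Ltbp1 ties that complex to the extracellular matrix until integrins, proteases or thrombospondin release it. The free ligand binds Tgfbr2, the type II receptor kinase, which switches on Tgfbr1, the type I receptor kinase, and Tgfbr1 phosphorylates Smad3 and its relative Smad2. Smad3 enters the nucleus with Smad4 and raises matrix genes, while Smad7, itself a target, blocks the receptors. In the heart the pathway is known for shaping the endocardial cushions in the embryo and for driving scar formation by fibroblasts after injury.

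The promoters of 2 ligand genes are shown because Tgfb1 and Tgfb2 had their highest levels in different kinds of nuclei, as described further on. Both windows run 5′ to 3′ from 250 bases before the start of the gene to 50 bases after it, in RefSeq's table for GRCm38.p6, which held 7 of the 10 genes. Capitals in Tgfb1 (chr7:25686752-25687051, plus strand) mark the GC box GGGCGG on either strand. Capitals in Tgfb2 (chr1:186705940-186706239, minus strand) mark the TATA box TATAAA and the E box CACGTG.
Tgfb1: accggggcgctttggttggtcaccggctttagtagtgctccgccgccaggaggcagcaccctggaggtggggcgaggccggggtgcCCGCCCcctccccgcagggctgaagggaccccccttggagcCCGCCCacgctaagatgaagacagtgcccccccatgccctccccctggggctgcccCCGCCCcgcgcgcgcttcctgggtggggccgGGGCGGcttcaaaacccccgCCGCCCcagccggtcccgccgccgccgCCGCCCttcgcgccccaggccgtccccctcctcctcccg
Tgfb2: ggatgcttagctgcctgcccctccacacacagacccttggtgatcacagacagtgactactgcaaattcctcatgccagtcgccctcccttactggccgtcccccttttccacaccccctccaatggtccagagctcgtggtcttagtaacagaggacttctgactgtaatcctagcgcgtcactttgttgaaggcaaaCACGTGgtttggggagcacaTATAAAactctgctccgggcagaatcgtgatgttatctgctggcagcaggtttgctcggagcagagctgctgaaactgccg
The Tgfb1 window was 77.0% G and C, against 54.3% in Tgfb2 and a median of 52.7% over 32851 promoter windows. It held 6 GC boxes, a number reached by 1.35% of all windows, and no TATAAA. The Tgfb2 window held no GC box, TATAAA at -31 to -26 and CACGTG at -51 to -46 relative to the start. On either strand, at least 1 GC box was found in 35.7% of all windows, TATAAA in 13.6% and CACGTG in 7.15%. The matches are a description of letters and were not tied to any level.

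After filtering and removal of called doublets, 6795 to 9545 nuclei per library remained, with 15682280 to 32963609 UMIs per library and a median of 1864 to 2671 UMIs per nucleus. The second uninjured-father library was the shallowest and had the most called doublets, 14.8% against 9.62% to 9.90% in the other libraries. Clustering gave 24 clusters, of which all but 2 were given 1 of 13 classes by marker genes and are called X-like. A total of 171 cell barcodes occurred in more than 1 library, 23 to 33 for each pair of libraries. Levels are given in CPM, the UMIs of a gene scaled to the same total of UMIs for every class and library. Ttn, the gene of the giant sarcomere protein titin, averaged 36837 CPM in cardiomyocyte-like nuclei and was also read in the other classes, at 1691 to 8258 CPM, highest in B lymphocyte-like nuclei. The part of free RNA in the low levels below was not tested. Class levels are descriptions, with no test, because the clusters were made from the same counts. Tgfb1, Tgfb2, Tgfbr1 and Ltbp2 were among the 3000 variable genes used for clustering. Ranks cover the 9 classes with at least 50 nuclei in every library.

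By level, Tgfb1 ranked the classes in another order than Tgfb2 and Tgfb3. Tgfb1, the ligand made by many blood-derived cells, was highest in B lymphocyte-like and macrophage or monocyte-like nuclei. Tgfb2 and Tgfb3 were highest in smooth muscle-like and fibroblast-like nuclei. T or NK lymphocyte-like nuclei, too few to rank, had 85.0 ± 25.5 CPM of Tgfb1 (SD, n = 4). Cardiomyocyte-like nuclei were the lowest ranked class for Tgfb1 and Tgfb3. Tgfb1 (ENSMUSG00000002603, chr7:25687002-25705077, plus strand, GENCODE M21 on GRCm38) was read at 240 and 178 CPM in B lymphocyte-like nuclei of injured-father hearts, against 227 and 98.8 CPM in uninjured-father hearts. In macrophage or monocyte-like nuclei it was read at 172 and 165 CPM in injured-father hearts, against 165 and 235 CPM in uninjured-father hearts. These classes, at 186 ± 63.9 and 184 ± 33.6 CPM (SD, n = 4), overlapped, and every macrophage-like value lay above every value of lymphatic endothelial-like nuclei (105 ± 18.3 CPM). The lowest B lymphocyte-like value, 98.8 CPM, lay within the lymphatic range. Vascular endothelial-like (94.0 ± 13.8 CPM) and endocardial-like nuclei (84.5 ± 21.1 CPM) followed and overlapped with lymphatic nuclei. Pericyte-like (38.2 ± 7.65 CPM) and fibroblast-like nuclei (33.0 ± 6.00 CPM) lay below all 3 endothelial classes. Cardiomyocyte-like nuclei had 5.77 and 5.36 CPM in injured-father hearts, against 4.45 and 3.93 CPM in uninjured-father hearts. Vascular endothelial-like nuclei held 31.3% of all 3829 Tgfb1 UMIs, ahead of fibroblast-like nuclei with 18.2%. Of the UMIs of all genes, these classes held 12.6% and 20.6%.

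Tgfb2 (ENSMUSG00000039239, chr1:186622792-186705989, minus strand) encodes the ligand that most depends on the co-receptor Tgfbr3 for binding. In smooth muscle-like nuclei it stood at 278 and 149 CPM in injured-father hearts, against 274 and 298 CPM in uninjured-father hearts. The first injured-father heart lay inside the uninjured-father range on this scale, whereas on the TMM-scaled CPM of the test further on, which corrects for composition, both injured-father hearts lay below both uninjured-father hearts. The 7 smooth muscle markers were also lower in these nuclei, at 7077 and 5504 CPM in injured-father hearts, against 8508 and 8362 CPM in uninjured-father hearts, with none at 0, and their part was not tested. Fibroblast-like nuclei varied less, with 160 and 142 CPM in injured-father hearts, against 155 and 174 CPM in uninjured-father hearts. Lymphatic endothelial-like (135 ± 43.6 CPM), endocardial-like (132 ± 24.8 CPM) and pericyte-like nuclei (121 ± 15.2 CPM) overlapped with each other and came next. Cardiomyocyte-like nuclei averaged 44.1 ± 2.51 CPM, below every value of the classes named so far. B lymphocyte-like nuclei were lowest at 19.7 ± 6.24 CPM from 19 UMIs in all. Vascular endothelial-like nuclei, the main source of Tgfb1 UMIs, had 30.2 ± 5.26 CPM of Tgfb2, the second lowest level.

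Tgfb3 (ENSMUSG00000021253, chr12:86056745-86079041, minus strand) encodes the third mammalian ligand. Its smooth muscle-like level was 128 and 63.9 CPM in injured-father hearts, against 80.0 and 90.8 CPM in uninjured-father hearts. Fibroblast-like nuclei had 53.8 and 58.3 CPM in injured-father hearts, against 61.9 and 64.4 CPM in uninjured-father hearts. Pericyte-like (51.9 ± 10.9 CPM) and lymphatic endothelial-like nuclei (48.1 ± 18.0 CPM) came next, and each of these 4 classes overlapped with its neighbour in the order. Below them came a step, to 12.3 ± 0.505 CPM in vascular endothelial-like nuclei and 2.97 ± 0.694 CPM in cardiomyocyte-like nuclei. Over the 13 classes, Tgfb2 and Tgfb3 were the ligand pair most alike, with a Pearson r of 0.72 on the log2(CPM + 10) scale. Fibroblast-like nuclei held 56.7% of Tgfb3 UMIs and 40.6% of Tgfb2 UMIs, beside 20.6% of the UMIs of all genes.

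**Figure D1:**
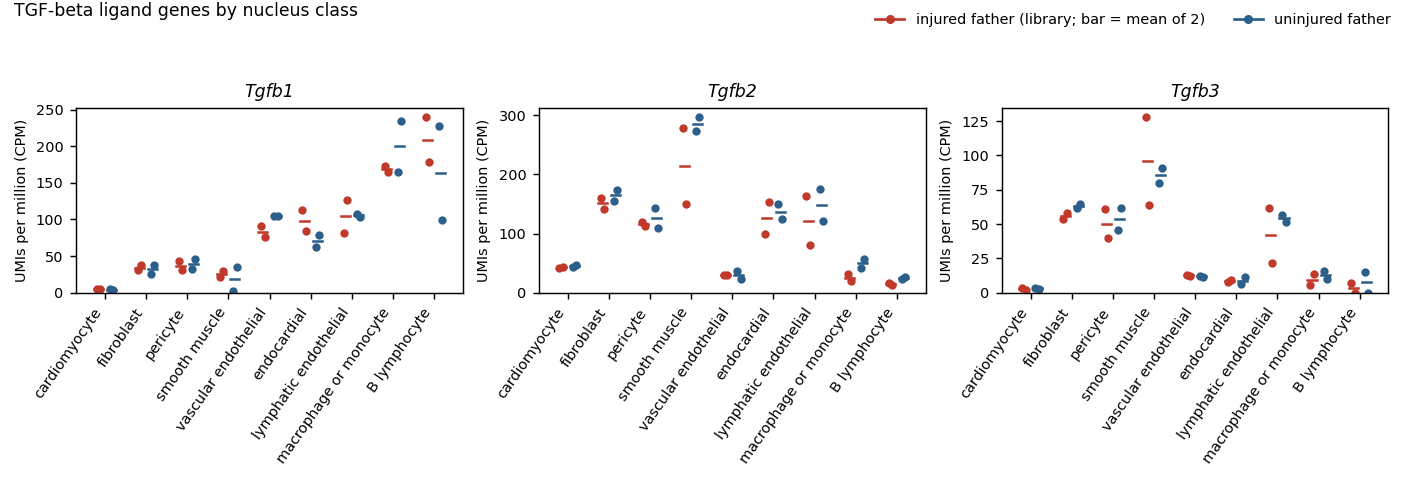
Levels of the 3 ligand genes in CPM (vertical axis, linear) in 9 classes of nuclei (horizontal axis); each point is 1 library, red for injured-father and blue for uninjured-father hearts, and each bar is the mean of 2 libraries. Tgfb1 is highest in B lymphocyte-like and macrophage or monocyte-like nuclei (186 and 184 CPM over 4 libraries) and Tgfb2 and Tgfb3 in smooth muscle-like nuclei (250 and 90.7 CPM).

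The receptors were read in every class. The type I receptor stood out in macrophages, the type II receptor in lymphatic and immune nuclei, and the co-receptor in fibroblasts. Tgfbr1 (ENSMUSG00000007613, chr4:47353222-47414931, plus strand) reached 759 and 799 CPM in macrophage or monocyte-like nuclei of injured-father hearts, against 599 and 604 CPM in uninjured-father hearts. Each of these 4 values was above every value of the next class, fibroblast-like nuclei (261 ± 23.8 CPM). Endocardial-like nuclei had 213 ± 16.8 CPM, smooth muscle-like nuclei 195 ± 67.5 CPM and cardiomyocyte-like nuclei 78.5 ± 3.83 CPM, the lowest of the 9 classes. The same pair of classes, in the other order, led for Smad3, and the levels of Tgfbr1 and Smad3 had a Pearson r of 0.66 over the 13 classes.

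Tgfbr2 (ENSMUSG00000032440, chr9:116084293-116175360, minus strand) was read at 604 and 630 CPM in lymphatic endothelial-like nuclei of injured-father hearts, against 624 and 582 CPM in uninjured-father hearts. Macrophage or monocyte-like nuclei had 515 ± 36.9 CPM, and none of their values reached the lymphatic range. B lymphocyte-like nuclei spread widely, with 786 and 423 CPM in injured-father hearts, against 548 and 359 CPM in uninjured-father hearts. Endocardial-like nuclei (381 ± 23.6 CPM) had more than fibroblast-like (242 ± 25.3 CPM) and vascular endothelial-like nuclei (197 ± 19.8 CPM) in all 4 libraries. In cardiomyocyte-like nuclei Tgfbr2 stood at 28.9 and 29.1 CPM in injured-father hearts, against 23.9 and 25.9 CPM in uninjured-father hearts. Those values lay below every value of pericyte-like nuclei (156 ± 10.8 CPM), the next class up.

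Tgfbr3 (ENSMUSG00000029287, chr5:107106570-107289629, minus strand) encodes betaglycan, which presents ligand to the signalling receptors and is known as the inhibin co-receptor too. Fibroblast-like nuclei had 752 and 880 CPM in injured-father hearts, against 859 and 815 CPM in uninjured-father hearts. Cardiomyocyte-like nuclei, low for the other receptors, were second here, with 445 and 550 CPM in injured-father hearts, against 483 and 449 CPM in uninjured-father hearts. They overlapped with lymphatic endothelial-like nuclei (480 ± 43.1 CPM). They held 43.0% of all 55283 Tgfbr3 UMIs, beside 46.7% of the UMIs of all genes. B lymphocyte-like (182 ± 18.0 CPM) and macrophage or monocyte-like nuclei (152 ± 41.1 CPM) were lowest, so that Tgfbr3 and Tgfb1 ran opposite over the 13 classes (Pearson r of -0.68). Adipocyte-like nuclei, with only 7 to 172 nuclei per library and so not ranked, had 1656 and 1020 CPM in injured-father hearts, against 1046 and 608 CPM in uninjured-father hearts.

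**Figure D2:**
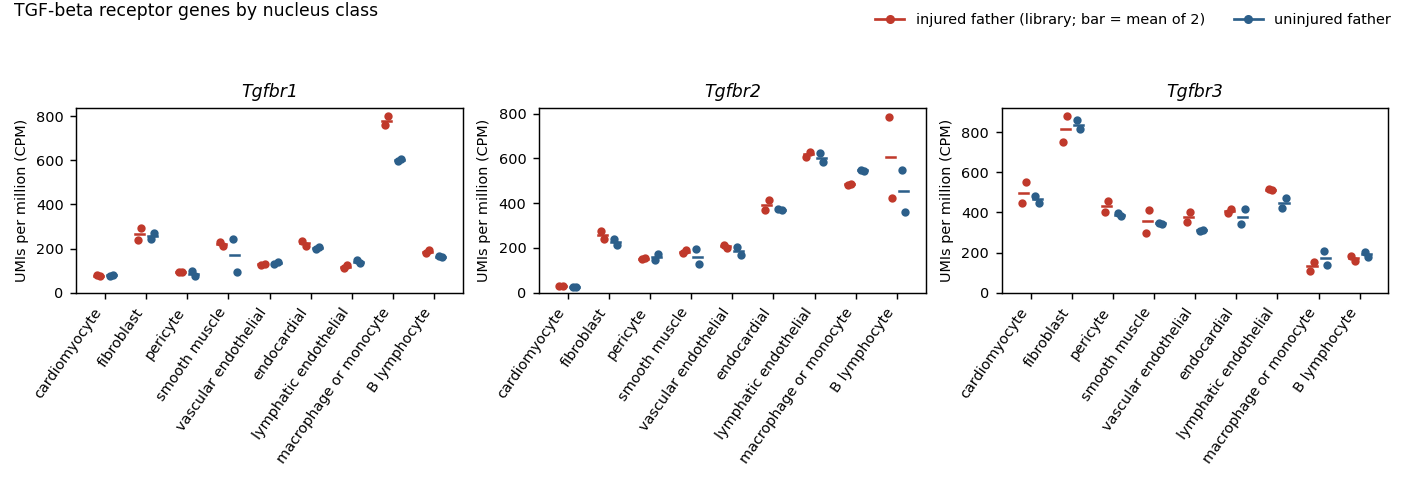
Levels of the 3 receptor genes in CPM (vertical axis, linear) in 9 classes of nuclei (horizontal axis); each point is 1 library, red for injured-father and blue for uninjured-father hearts, and each bar is the mean of 2 libraries. Tgfbr1 in macrophage or monocyte-like nuclei lies at 759 and 799 CPM in injured-father hearts, against 599 and 604 CPM in uninjured-father hearts, above every other class.

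Among the ranked classes, both latent binder genes had their highest mean in smooth muscle-like nuclei, and Ltbp1 was also high in endocardial-like nuclei. Adipocyte-like nuclei, too few to rank, had a higher mean of Ltbp2, 45.9 ± 34.1 CPM from 69 UMIs. Ltbp1 (ENSMUSG00000001870, chr17:75005568-75392512, plus strand) stood at 1078 and 836 CPM in smooth muscle-like nuclei of injured-father hearts, against 1186 and 1065 CPM in uninjured-father hearts. Endocardial-like nuclei had 887 and 936 CPM in injured-father hearts, against 1014 and 944 CPM in uninjured-father hearts. The values of these classes overlapped, and all of them lay above every value of cardiomyocyte-like (516 ± 48.9 CPM) and fibroblast-like nuclei (502 ± 52.6 CPM). Pericyte-like nuclei, the other mural class, had 152 ± 21.2 CPM, and macrophage or monocyte-like nuclei were lowest at 124 ± 22.2 CPM. Cardiomyocyte-like nuclei held 51.7% of all 48204 Ltbp1 UMIs, beside 46.7% of the UMIs of all genes.

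Ltbp2 (ENSMUSG00000002020, chr12:84783212-84876532, minus strand) belongs to the same family and sits on elastic microfibrils, but is not known to bind latent TGF-beta. It was sparse, with 769 UMIs in all, of which fibroblast-like nuclei held 60.5%, beside 20.6% of the UMIs of all genes. Those nuclei had 18.8 and 17.6 CPM in injured-father hearts, against 24.9 and 28.3 CPM in uninjured-father hearts. Smooth muscle-like nuclei averaged 22.8 ± 11.1 CPM from 25 UMIs, and lymphatic endothelial-like nuclei 19.7 ± 18.6 CPM from 32 UMIs, so that the order of these 3 classes was not set beyond their spread. The other 6 ranked classes were between 1.36 and 4.17 CPM, which included cardiomyocyte-like nuclei with 63 UMIs.

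Of the transducers, Smad3 (ENSMUSG00000032402, chr9:63646767-63757994, minus strand) was highest in fibroblast-like nuclei, at 507 and 375 CPM in injured-father hearts, against 445 and 400 CPM in uninjured-father hearts. Every one of these values exceeded all 4 of macrophage or monocyte-like nuclei (281 ± 58.9 CPM), the next class. Pericyte-like nuclei had 167 ± 48.2 CPM and cardiomyocyte-like nuclei 97.9 ± 14.8 CPM, and vascular endothelial-like nuclei were lowest at 76.1 ± 14.2 CPM. Smad7 (ENSMUSG00000025880) had a different order, led by endocardial-like nuclei with 440 and 371 CPM in injured-father hearts, against 372 and 391 CPM in uninjured-father hearts. Vascular endothelial-like nuclei were second, with 266 and 193 CPM in injured-father hearts, against 218 and 266 CPM in uninjured-father hearts, all below the endocardial values. Fibroblast-like nuclei, first for Smad3, had 127 ± 14.9 CPM of Smad7, and macrophage or monocyte-like nuclei, second for Smad3, had the lowest Smad7 level at 51.6 ± 10.8 CPM.

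**Figure D3:**
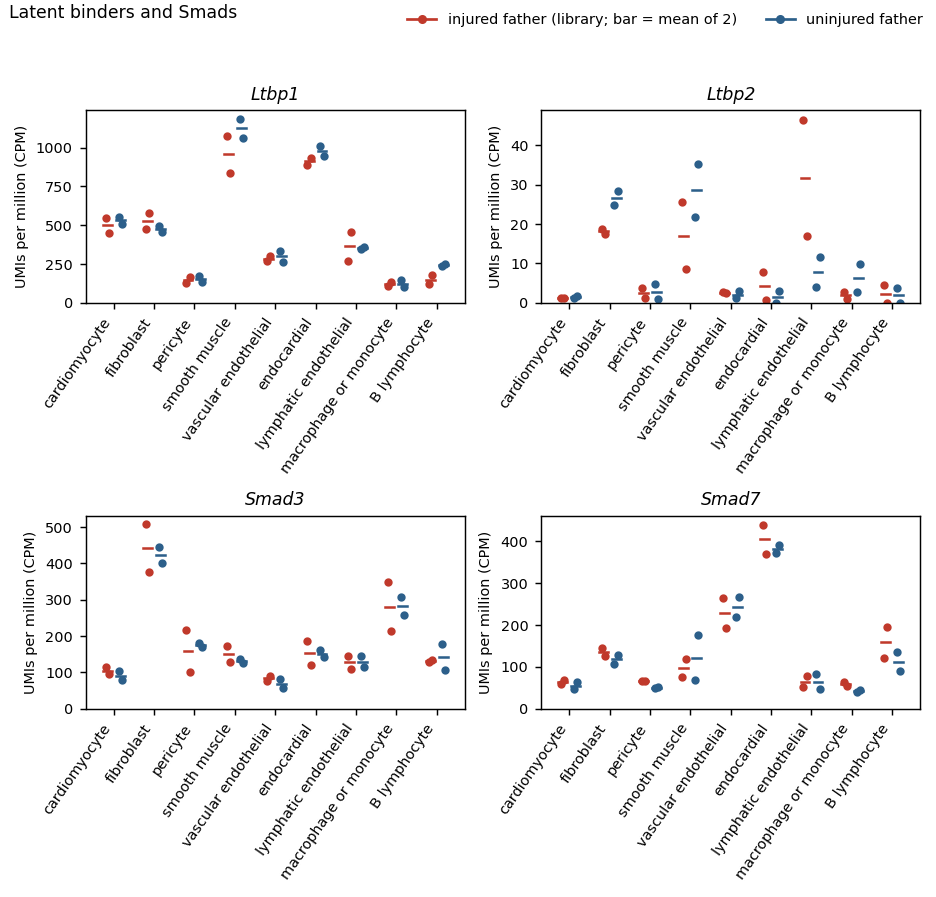
Levels of the latent binder genes and the Smad genes in CPM (vertical axis, linear) in 9 classes of nuclei (horizontal axis); each point is 1 library, red for injured-father and blue for uninjured-father hearts, and each bar is the mean of 2 libraries. Ltbp1 is highest in smooth muscle-like and endocardial-like nuclei (1041 and 945 CPM over 4 libraries), Smad3 in fibroblast-like nuclei (432 CPM) and Smad7 in endocardial-like nuclei (394 CPM).

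Within a class the genes were uneven between clusters, each named here by its leading genes. Ltbp2 was concentrated in the smallest fibroblast-like cluster, of 269 nuclei, led by Kcnma1, Thbs4 and Thbs1 and also by Postn, a matrix gene of activated fibroblasts. It had 181 and 69.9 CPM there in injured-father hearts, against 210 and 253 CPM in uninjured-father hearts. The Sntg1-led cluster had 35.1 ± 6.07 CPM (SD, n = 4), the Gfpt2-led cluster, with the adventitial gene Pi16, 9.54 ± 4.36 CPM and the Gfra1-led cluster 4.20 ± 1.58 CPM. These 4 ranges did not overlap, apart from those of the Gfpt2-led and Gfra1-led clusters. Tgfbr1 was also highest in the Kcnma1-led cluster, with 459 ± 227 CPM against 229 to 302 CPM in the other 3, but its high mean rested on the second injured-father heart, at 797 CPM. Tgfb2 and Ltbp1 differed little between fibroblast-like clusters, at 142 to 177 CPM and 390 to 536 CPM.

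The pair of smooth muscle-like clusters differed more. In the Kcnab1/Itga8-led cluster, of 197 nuclei, Tgfb2 stood at 427 and 276 CPM in injured-father hearts, against 424 and 525 CPM in uninjured-father hearts. In the Kcnab1/Myh11-led cluster, of 297 nuclei, it stood at 150 and 96.6 CPM in injured-father hearts, against 135 and 144 CPM in uninjured-father hearts. Ltbp1 averaged 1533 ± 168 CPM in the Kcnab1/Itga8-led cluster and 708 ± 159 CPM in the other, and Tgfbr1 379 ± 128 CPM and 70.0 ± 36.1 CPM. For all 3 genes, each library was higher in the Kcnab1/Itga8-led cluster. The smooth muscle-like class levels pool both clusters and so depend on their mix, whose part in the father comparison was not tested. Ltbp2 followed, with 49.9 ± 19.9 CPM from 23 UMIs in the Kcnab1/Itga8-led cluster and 3.28 ± 4.09 CPM from 2 UMIs in the other. Tgfbr3 did not, at 329 ± 91.7 CPM and 371 ± 34.6 CPM.

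Among cardiomyocyte-like clusters, the one led by Fgf12 and holding the atrial genes Nppa and Myl4 had 173 ± 19.0 CPM of Ltbp1, against 566 ± 55.6 CPM in the largest, Fhl2-led cluster. Smad7 went the other way, with 173 ± 36.6 CPM in the Fgf12-led and 42.5 ± 10.3 CPM in the Fhl2-led cluster. A cluster of 243 nuclei led by Grip1 and Cntn2 had 193 ± 31.3 CPM of Smad7 and 156 ± 73.6 CPM of Tgfb2. The Fhl2-led cluster had 31.3 ± 6.50 CPM of Tgfb2, below every library of the Grip1-led cluster. In vascular endothelial-like nuclei, the Fabp4-led cluster had 65.3 ± 13 CPM of Tgfb2 and 335 ± 63.4 CPM of Smad7. The Ablim3-led cluster, the largest, had 19.0 ± 4.19 CPM of Tgfb2 and 191 ± 18.7 CPM of Smad7, and no library of either gene overlapped between these clusters. The Kirrel3-led cluster stood apart by Ltbp1, with 446 ± 55.3 CPM against 223 ± 21.0 CPM in the Ablim3-led cluster, and by Smad3, with 122 ± 24.7 CPM against 57.0 ± 10.6 CPM.

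**Figure D4:**
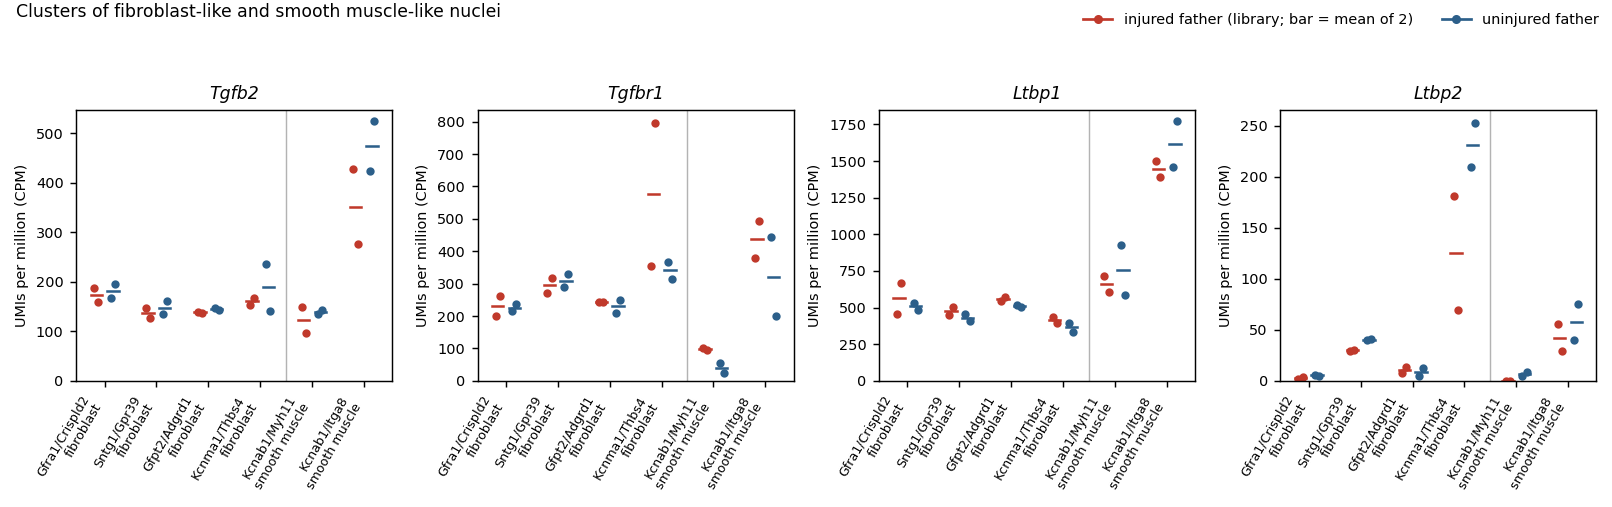
Levels of Tgfb2, Tgfbr1, Ltbp1 and Ltbp2 in CPM (vertical axis, linear) in 4 fibroblast-like and 2 smooth muscle-like clusters, each named by its 2 leading genes (horizontal axis); each point is 1 library, red for injured-father and blue for uninjured-father hearts, and each bar is the mean of 2 libraries. Ltbp2 is highest in the Kcnma1-led fibroblast-like cluster (178 CPM over 4 libraries) and Ltbp1 in the Kcnab1/Itga8-led smooth muscle-like cluster (1533 CPM).

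The genes whose class pattern was most like that of a member were sought among 10796 genes over the 13 classes, which share their libraries. The closest to Tgfb1 was Cdc42se2 (Pearson r of 0.96), to Tgfb2 the LIM-domain gene Fhl1 (0.94), and to Tgfb3 the glycine transporter gene Slc6a9 (0.87). Pias1, the gene of a SUMO ligase, was closest to Tgfbr1 (0.90), Kansl1 to Tgfbr2 (0.95) and the flippase gene Atp9a to Tgfbr3 (0.93). Ltbp1 was most like Synj2 (0.85), Ltbp2 most like Morc2a (0.93), Smad3 most like Pced1a (0.81) and Smad7 most like Rab27a (0.84). Sparse classes weigh as much as large ones in these values.

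Offspring of injured and uninjured fathers were then compared, which asks whether a lesion in the father changes the heart of the injured offspring. Each library gave 1 sum of UMIs per class, and the sums were tested over all genes with edgeR's quasi-likelihood test, with Benjamini-Hochberg adjustment over all genes of the class. No member passed an adjusted p of 0.05 in any of the 9 classes or in all nuclei, and DESeq2 and limma-voom called none either. With 2 hearts against 2, an exact two-sided permutation test of 1 value could not go below a p of 0.333. The tests were therefore read from the fit across all genes. Log2 fold changes are injured-father over uninjured-father hearts, with the standard error (SE) from the fit.

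In cardiomyocyte-like nuclei, 0 of 10 tested members were called, beside 0.00799% of 12515 genes, and 0 had an unadjusted p under 0.05, beside 4.24% of genes. In fibroblast-like nuclei, 0 of 10 were called (0.0161% of 12432 genes) and 1 had an unadjusted p under 0.05 (3.13% of genes). Vascular endothelial-like nuclei gave 0 of 9 called (0% of 11352 genes) and 2 at the unadjusted threshold (5.21%). Pericyte-like nuclei gave 0 of 9 (0.0698% of 10029 genes) and 1 (4.24%). Macrophage or monocyte-like nuclei gave 0 of 8 (0.131% of 8394 genes) and 2 (5.5%). Endocardial-like nuclei gave 0 of 8 (0.0364% of 8234 genes) and 1 (5.05%). B lymphocyte-like nuclei gave 0 of 7 (0% of 4968 genes) and 1 (5.45%). Smooth muscle-like nuclei gave 0 of 8 (0% of 4889 genes) and 0 (3.95%). Lymphatic endothelial-like nuclei gave 0 of 9 (0% of 6740 genes) and 0 (4.23%). For all nuclei together, 0 of 10 were called (0.0873% of 14893 genes) and 1 had an unadjusted p under 0.05 (7.04%). The members not tested were those too sparse for the count filter, most often Ltbp2, which was tested in cardiomyocyte-like and fibroblast-like nuclei alone among the classes.

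The libraries of the 2 groups did not overlap, on TMM-scaled CPM, for 2 members in cardiomyocyte-like nuclei (30.6% of all genes tested there), 4 in fibroblast-like (29.3%), 3 in vascular endothelial-like (35.1%) and 2 in pericyte-like nuclei (32.1%). They did not overlap for 4 members in macrophage or monocyte-like (33.4%), 2 in endocardial-like (33.2%), 3 in B lymphocyte-like (35%), 1 (Tgfb2) in smooth muscle-like (32.5%) and 2 in lymphatic endothelial-like nuclei (33.4%). In all nuclei 5 members were apart (35.4%).

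The members with an unadjusted p under 0.05 are given in turn, and none passed adjustment. Tgfbr1 in macrophage or monocyte-like nuclei had the values given above, with both injured-father hearts above both uninjured-father hearts and a log2 fold change of 0.39 (SE 0.15, edgeR adjusted p = 0.788). Such a separation was seen, in either direction, for 33.4% of the genes tested in that class. The 10 macrophage or monocyte markers summed to 11210 and 12090 CPM in these nuclei of injured-father hearts, against 13600 and 16310 CPM in uninjured-father hearts. In the same nuclei Tgfb2 was read at 31.1 and 19.9 CPM in injured-father hearts, against 42.4 and 57.4 CPM in uninjured-father hearts, from 22, 19, 30 and 23 UMIs. Its log2 fold change was -0.95 (SE 0.38, edgeR adjusted p = 0.788). The 12 cardiomyocyte markers summed to 7346 and 7697 CPM in macrophage-like nuclei of injured-father hearts, against 10790 and 8503 CPM in uninjured-father hearts, none of them at 0. The 11 fibroblast markers summed to 1391 and 1678 CPM there in injured-father hearts, against 2028 and 1595 CPM in uninjured-father hearts. Their part in the Tgfb2 difference was not tested.

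Ltbp2 in fibroblast-like nuclei, whose values are given above, was lower in both injured-father hearts, with a log2 fold change of -0.52 (SE 0.19, edgeR adjusted p = 1.00). The groups did not overlap, as for 29.3% of the genes tested in fibroblast-like nuclei. Within the Sntg1-led cluster alone it had 29.7 and 30.1 CPM in injured-father hearts, against 40.0 and 40.8 CPM in uninjured-father hearts. The Kcnma1-led cluster, where Ltbp2 is highest, had 56 and 56 nuclei in injured-father hearts, against 89 and 68 in uninjured-father hearts, and its part in the class difference was not tested. A test of whether the effect of the father differed between the 9 classes, in 1 fit over 11977 genes, called 0 of the 10 members, beside 0.125% of genes. Ltbp2 was the 1 member with an unadjusted p under 0.05 in it (edgeR adjusted p = 0.924), beside 5.34% of genes. That value rests partly on classes where Ltbp2 was too sparse to test alone. Its UMIs were 6 and 1 in endocardial-like nuclei of injured-father hearts, against 0 and 1 in uninjured-father hearts. In lymphatic endothelial-like nuclei they were 21 and 7 in injured-father hearts, against 2 and 2 in uninjured-father hearts.

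In vascular endothelial-like nuclei Tgfbr3 had 352 and 402 CPM in injured-father hearts, against 310 and 313 CPM in uninjured-father hearts. Its log2 fold change was 0.32 (SE 0.12, edgeR adjusted p = 0.906). Tgfb1 went the other way in these nuclei, with 90.7 and 75.8 CPM in injured-father hearts, against 105 and 105 CPM in uninjured-father hearts. The log2 fold change was -0.30 (SE 0.13, edgeR adjusted p = 0.929). In endocardial-like nuclei, by contrast, Tgfb1 had 113 and 84.2 CPM in injured-father hearts, against 62.6 and 78.1 CPM in uninjured-father hearts, and a log2 fold change of 0.52 (SE 0.24, edgeR adjusted p = 0.949). None of these groups overlapped, which held for 35.1% of the genes tested in vascular endothelial-like and 33.2% of those in endocardial-like nuclei. The test of a difference between classes gave Tgfb1 an edgeR adjusted p of 1.00. The endocardial-like level of the 10 macrophage markers, a class high in Tgfb1, was 256 and 238 CPM in injured-father hearts, against 217 and 211 CPM in uninjured-father hearts, and its part was not tested.

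Smad7 in pericyte-like nuclei had 67.3 and 65.9 CPM in injured-father hearts, against 48.5 and 52.5 CPM in uninjured-father hearts. The fold change on the log2 scale was 0.43 (SE 0.20, edgeR adjusted p = 0.999), with a gap between the groups as for 32.1% of genes tested there. The endocardial markers, a class high in Smad7, summed to 325 and 364 CPM in pericyte-like nuclei of injured-father hearts, against 291 and 293 CPM in uninjured-father hearts, and their part was not tested. Ltbp1 in B lymphocyte-like nuclei had 122 and 178 CPM in injured-father hearts, against 238 and 252 CPM in uninjured-father hearts. Its log2 fold change was -0.78 (SE 0.29, edgeR adjusted p = 0.816), and -0.02 where called doublets were kept. The 12 cardiomyocyte markers summed to 11210 and 17030 CPM in those nuclei of injured-father hearts, against 21880 and 36260 CPM in uninjured-father hearts. Ltbp1 and these markers were thus both lower in the injured-father hearts, and the part of cardiomyocyte RNA was not tested.

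In the sum over all nuclei, Tgfbr2 had 191 and 162 CPM in injured-father hearts, against 142 and 130 CPM in uninjured-father hearts. Its log2 fold change was 0.36 (SE 0.13, edgeR adjusted p = 0.610). Cardiomyocyte-like nuclei, the class lowest in Tgfbr2, gave 42.0% and 44.7% of the UMIs in injured-father hearts, against 51.4% and 48.7% in uninjured-father hearts. T or NK lymphocyte-like nuclei held 4.87% and 2.45% of the Tgfbr2 UMIs in injured-father hearts, against 1.75% and 1.08% in uninjured-father hearts. B lymphocyte-like nuclei held 7.72% and 1.78% in injured-father hearts, against 3.25% and 1.96% in uninjured-father hearts. Adipocyte-like nuclei held 5.94% and 1.27% in injured-father hearts, against 0.224% and 0% in uninjured-father hearts, and made up 2.09% and 1.12% of nuclei in injured-father hearts, against 0.191% and 0.103% in uninjured-father hearts. The cardiomyocyte, T or NK lymphocyte and adipocyte shares differed between the groups with no overlap, the B lymphocyte share was high in the first injured-father heart alone, and their part was not tested. The sum alone does not separate fewer nuclei of a type from less RNA per nucleus, but nuclei were also counted. Cardiomyocyte-like nuclei made up 23.1% and 26.5% of nuclei in injured-father hearts, against 30.5% and 31.1% in uninjured-father hearts. Whether the nuclei recovered reflect the cells of the heart was not tested. Within classes, the Tgfbr2 fold change was 0.24 (SE 0.16) in cardiomyocyte-like, 0.20 (SE 0.14) in fibroblast-like and 0.18 (SE 0.13) in vascular endothelial-like nuclei on the log2 scale. It was 0.35 (SE 0.32) in B lymphocyte-like, 0.12 (SE 0.28) in smooth muscle-like, 0.10 (SE 0.17) in endocardial-like and 0.05 (SE 0.18) in lymphatic endothelial-like nuclei. Pericyte-like (-0.02, SE 0.15) and macrophage or monocyte-like nuclei (-0.16, SE 0.16) had negative values. The latter had 479 and 488 CPM in injured-father hearts, against 549 and 544 CPM in uninjured-father hearts, with no overlap, as for 33.4% of genes tested there.

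In the ranked class in which each gene was highest, no estimate passed adjustment. Tgfb1 had a log2 fold change of 0.22 (SE 0.33) in B lymphocyte-like nuclei, and of -0.20 (SE 0.20) in macrophage or monocyte-like nuclei, the next class. Tgfbr1 in macrophage or monocyte-like nuclei had the 0.39 (SE 0.15) given above, the one estimate here with an unadjusted p under 0.05. Tgfb2 and Tgfb3 in smooth muscle-like nuclei had -0.41 (SE 0.29) and 0.19 (SE 0.37). Tgfbr2 in lymphatic endothelial-like nuclei had 0.05 (SE 0.18), and Tgfbr3 and Smad3 in fibroblast-like nuclei had -0.01 (SE 0.15) and 0.08 (SE 0.16). Ltbp1 had -0.25 (SE 0.22) in smooth muscle-like nuclei, and Smad7 had 0.10 (SE 0.17) in endocardial-like nuclei. Ltbp2 was too sparse to test in smooth muscle-like nuclei. None of these values shows that the groups were equal.

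**Figure D5:**
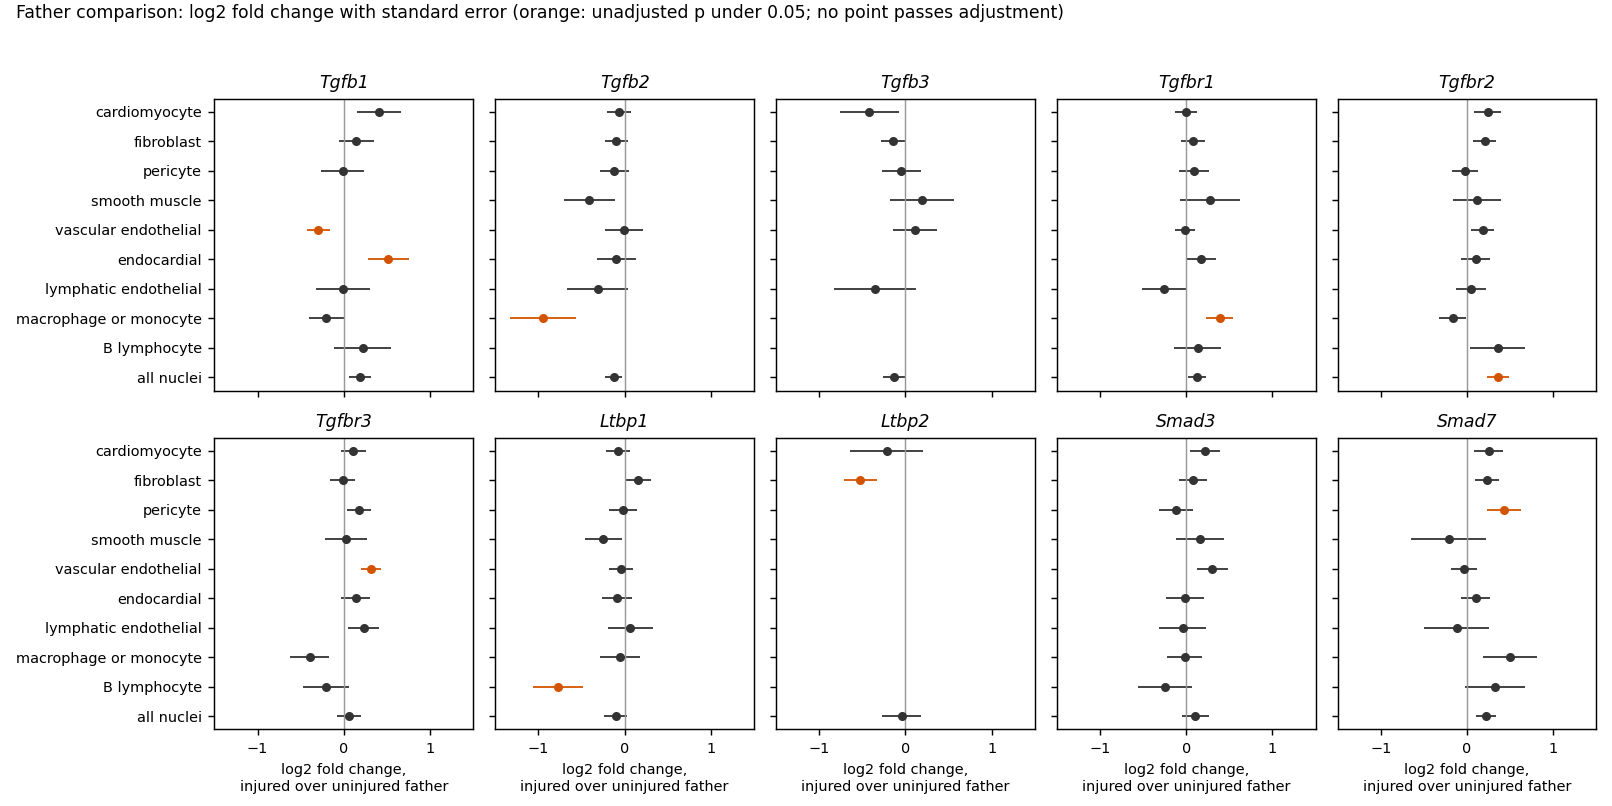
Log2 fold change of the 10 genes, injured-father over uninjured-father hearts (horizontal axis), in 9 classes and all nuclei (vertical axis); each point is the edgeR estimate over 2 against 2 libraries, each line its standard error, and a missing point is a gene too sparse to test. Orange points have an unadjusted p under 0.05, such as Tgfb2 in macrophage or monocyte-like nuclei (-0.95) and Ltbp2 in fibroblast-like nuclei (-0.52), and none passes adjustment.

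Other genes of the pathway were read from 5 lists: 16 genes of latent storage and activation, 7 further receptors, 9 further transducers, 13 inhibitors and 20 target genes. In each of the 9 classes and in all nuclei, 0 genes of each list passed an adjusted p of 0.05, beside the percentages given above. The gene with the smallest p was the target Acta2, a contractile actin of smooth muscle and myofibroblasts, in fibroblast-like nuclei. It had 23.5 and 20.2 CPM in injured-father hearts, against 41.5 and 41.3 CPM in uninjured-father hearts, with a log2 fold change of -0.91 (SE 0.17, edgeR adjusted p = 0.302). The 7 smooth muscle markers, Acta2 among them, summed to 279 and 236 CPM in these nuclei of injured-father hearts, against 325 and 356 CPM in uninjured-father hearts, with none at 0. Acta2 averaged 1278 CPM in smooth muscle-like and 232 CPM in cardiomyocyte-like nuclei, and the part of RNA from those nuclei was not tested. Postn, a matrix target, had 157 and 145 CPM in smooth muscle-like nuclei of injured-father hearts, against 306 and 313 CPM in uninjured-father hearts (log2 fold change -1.04, SE 0.24, edgeR adjusted p = 0.790). The smooth muscle markers, whose sums in these nuclei are given with Tgfb2, were lower there too. The 11 fibroblast markers, Postn and Dcn among them, summed to 2921 and 3236 CPM in these nuclei of injured-father hearts, against 3002 and 3210 CPM in uninjured-father hearts, and the part of both lists was not tested.

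The target list had a negative median log2 fold change in all 9 classes. It was -0.30 over 9 tested targets in macrophage or monocyte-like nuclei, -0.22 over 10 in lymphatic endothelial-like and -0.21 over 11 in smooth muscle-like nuclei. In fibroblast-like nuclei the median was -0.07 over 19 targets, of which 7 were positive and 12 negative. Over all genes tested, the class medians lay between -0.01 and 0.01. Targets overlap between classes and the 9 classes share 4 hearts, so these medians are not independent. Smooth muscle and cardiomyocyte markers had negative medians as well. The median log2 fold change of the smooth muscle markers, which share Acta2 and Tagln with the targets, was negative in all 9 classes (-1.23 to -0.16). So was that of the cardiomyocyte markers (-0.91 to -0.0018), and the 9 classes include each list's own class. Other lists were not lower throughout. Endocardial markers in pericyte-like nuclei summed to 325 and 364 CPM in injured-father hearts, against 291 and 293 CPM in uninjured-father hearts. Mesothelial or epicardial markers in endocardial-like nuclei summed to 68.8 and 48.5 CPM in injured-father hearts, against 27.7 and 37.6 CPM in uninjured-father hearts. In fibroblast-like nuclei 6 of 6 tested smooth muscle markers (median -0.35) and 11 of 12 cardiomyocyte markers (median -0.24) were negative. In cardiomyocyte-like nuclei 6 of 6 smooth muscle markers were negative (median -0.44). In lymphatic endothelial-like nuclei the cardiomyocyte markers summed to 3282 and 4590 CPM in injured-father hearts, against 6496 and 7679 CPM in uninjured-father hearts. Their sums were also lower without overlap in B lymphocyte-like, macrophage or monocyte-like and endocardial-like nuclei. In cardiomyocyte-like nuclei they overlapped, at 84671 and 86376 CPM in injured-father hearts, against 80863 and 94056 CPM in uninjured-father hearts. So did the sums in fibroblast-like, pericyte-like, smooth muscle-like and vascular endothelial-like nuclei. The part of these markers' cell types in the target medians was not tested.

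Among inhibitors, Ski, a corepressor that binds Smad proteins, had 201 and 173 CPM in cardiomyocyte-like nuclei of injured-father hearts, against 133 and 132 CPM in uninjured-father hearts. Its log2 fold change was 0.51 (SE 0.13, edgeR adjusted p = 0.657). Dcn, the proteoglycan decorin, which binds TGF-beta, had 234 and 358 CPM in smooth muscle-like nuclei of injured-father hearts, against 170 and 182 CPM in uninjured-father hearts (log2 fold change 0.74, SE 0.27, edgeR adjusted p = 0.998). The smooth muscle and fibroblast marker sums of these nuclei are given above. Dcn is itself in the fibroblast sum, as is Postn, which went the other way, so that sum is no separate gauge for Dcn. Of the storage genes, Itgb6, the beta chain of an integrin that frees latent ligand, had 61.1 and 53.4 CPM in B lymphocyte-like nuclei of injured-father hearts, against 102 and 207 CPM in uninjured-father hearts (log2 fold change -1.33, SE 0.41, edgeR adjusted p = 0.619). Cardiomyocyte-like nuclei averaged 399 CPM of Itgb6, the most of any class, and the cardiomyocyte markers moved the same way in these B lymphocyte-like nuclei, as given above. Their part was not tested. Fbn2, a microfibril gene, had a log2 fold change of -1.15 (SE 0.41, edgeR adjusted p = 0.817) in endocardial-like nuclei. The receptors Acvr1b in macrophage or monocyte-like (0.78, SE 0.33) and Acvr2a in lymphatic endothelial-like nuclei (0.58, SE 0.28) had positive log2 fold changes. The transducers Dab2 in macrophage or monocyte-like (-0.38, SE 0.16) and Tab2 in B lymphocyte-like nuclei (0.56, SE 0.27) went opposite ways, and none of the 4 passed adjustment.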

How the data were processed

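Single-nucleus libraries of 4 hearts were analysed from the deposited UMI counts, whole-number counts per gene and barcode that the authors made; per the file headers, the software was Cell Ranger 6.0.1. The submitters' processing notes also name Seurat 4.0. The genome build behind the counts is not given in the sources used here, and 21830 of 21884 gene IDs matched GENCODE M21, which gave the coordinates. Nuclei needed at least 500 UMIs, 300 genes and under 5% mitochondrial UMIs. Doublets were called per library with scanpy 1.11.5 and removed. Clusters (3000 variable genes, 30 components, 20 neighbours, Leiden resolution 1.0) were named from marker lists with at least 3 detected markers. Of the 2 unnamed clusters, 1 was led by Wdfy4 and haemoglobin genes, with erythroid the best and neutrophil the second list. The other had both endocardial and fibroblast markers. Both were left unnamed after their genes were seen. All per-nucleus processing after the counts was rebuilt here, so class names may differ from those of the authors.

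UMIs were summed per class and library (15682280 to 32963609 UMIs per library over all nuclei). Sums were tested with edgeR 4.0.16 in R 4.3.3 (TMM, filterByExpr with a minimum count of 10, quasi-likelihood F test), for classes with at least 50 nuclei in each of the 4 libraries. SE was taken as the log2 fold change, without its sign, over the root of F. The 2 libraries of a group are separate hearts, so p-values measure the spread between hearts, with counting error included. Whether the hearts of a group come from the same father or litter is not stated in the sources used here. The spread between fathers may therefore not be measured, and a difference between single fathers or litters cannot be told apart from an effect of the father's injury. The code was tested on simulated data. Alternatives were DESeq2 1.42.0, limma-voom (limma 3.58.1), other size factors, filters, clusterings, a replicate block and leaving out each library. Levels are means over 4 libraries with SD.

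The 10 members and the 5 lists were chosen with earlier results of these data known. All members were named in each class, and from each list the genes past adjusted p 0.05 or otherwise the 2 with the smallest p. The 3 genes most like each member were found by Pearson r on log2(CPM + 10), among genes of at least 20 CPM in a class, and the first of each is named. Tgfb3, Tgfbr3 and Smad7 had no entry in the promoter table. The labels give same-numbered libraries of the groups no link beyond the number.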

Additional observations from a re-analysis of the deposited data

How the results depend on the processing

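In 154 fits over 11 results (the 9 classes, all nuclei and the difference between classes), members called stayed at 0, with a smallest adjusted p of 0.0803. This covers DESeq2, limma-voom, other size factors, no low count filter, kept doublets, a stricter nucleus filter, the alternative clusterings and each left-out library. With a replicate block the count was also 0. Same-numbered libraries of the groups correlated at -0.04 to 0.11 in their deviations. With 2 libraries per group, these values cannot show whether same-numbered hearts were prepared together. The number of all genes called moved much more: leaving out 1 library gave 0 to 131 in cardiomyocyte-like nuclei (1 with all), 1 to 140 in fibroblast-like (2), 4 to 53 in vascular endothelial-like (0), 9 to 22 in pericyte-like (7) and 21 to 47 in macrophage or monocyte-like nuclei (11). It gave 5 to 32 in endocardial-like (3), 2 to 59 in B lymphocyte-like (0), 0 to 25 in smooth muscle-like (0) and 0 to 121 in lymphatic endothelial-like nuclei (0), and 0 to 507 in all nuclei (13). The other alternatives gave 0 to 180 in cardiomyocyte-like nuclei and 0 to 183 in all nuclei. The cause was not tested. Without 1 library the sign of the log2 fold change turned for Tgfbr3 (-0.15 to 0.10) and Smad3 (-0.15 to 0.27) in fibroblast-like, Smad7 in endocardial-like (-0.00357 to 0.21), Tgfb1 in B lymphocyte-like (-0.12 to 1.08), Tgfb3 in smooth muscle-like (-0.41 to 0.59) and Tgfbr2 in lymphatic endothelial-like nuclei (-0.00595 to 0.12), all uncalled. The other estimates followed kept their sign, with ranges over 1.5 times the smaller end for Tgfb2 in smooth muscle-like (-0.94 to -0.04) and macrophage or monocyte-like nuclei (-1.26 to -0.64), Ltbp1 in smooth muscle-like (-0.44 to -0.07) and B lymphocyte-like nuclei (-1.05 to -0.46), Tgfb1 in endocardial-like (0.33 to 0.72) and vascular endothelial-like nuclei (-0.42 to -0.18), Tgfbr3 in vascular endothelial-like nuclei (0.21 to 0.42) and Tgfbr2 in all nuclei (0.25 to 0.47). Narrower were Ltbp2 in fibroblast-like (-0.58 to -0.48), Tgfbr1 in macrophage or monocyte-like (0.34 to 0.43) and Smad7 in pericyte-like nuclei (0.41 to 0.45). Of 360 alternative class levels, 33 moved by more than 1 SD and 14 by more than 1.5 times, from 3.15 CPM of Tgfb3 in B lymphocyte-like nuclei under the stricter filter (5.48 before) to 12.9 CPM of Ltbp2 in endocardial-like nuclei with doublets kept (2.85 before). The top class was the same for 8 to 10 of the 10 genes. The exceptions were Tgfb1, then highest in macrophage or monocyte-like nuclei, and Ltbp2, then highest in fibroblast-like nuclei. Sparse genes limit what can be seen: Ltbp2 had 769 UMIs in all 4 libraries.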

Other observations

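The classes too sparse to rank held further values. Schwann or glial-like nuclei (45 to 76 per library) had 697 and 669 CPM of Tgfbr3 in injured-father hearts, against 688 and 874 CPM in uninjured-father hearts. T or NK lymphocyte-like nuclei (25 to 214 per library) had 558 and 615 CPM of Tgfbr2 in injured-father hearts, against 408 and 449 CPM in uninjured-father hearts. The 12 cardiomyocyte markers, of a class low in Tgfbr2, summed to 7491 and 11806 CPM in these nuclei of injured-father hearts, against 28726 and 23460 CPM in uninjured-father hearts, none of them at 0, and their part was not tested. In these lymphocyte nuclei Smad7 stood at 257 and 183 CPM in injured-father hearts, against 188 and 429 CPM in uninjured-father hearts. Adipocyte-like nuclei had 78.9 and 62.7 CPM of Ltbp2 in injured-father hearts, against 41.8 and 0 CPM in uninjured-father hearts, where there were 18 and 7 such nuclei. Pmepa1, a target that dampens the pathway, averaged 745 CPM in Schwann or glial-like and 433 CPM in adipocyte-like nuclei, against 40.3 CPM in B lymphocyte-like nuclei. Eng, the gene of the co-receptor endoglin, averaged 1650 CPM in endocardial-like nuclei and 682 CPM in vascular endothelial-like nuclei. Dab2, an adaptor of the receptors, averaged 1506 CPM in macrophage or monocyte-like nuclei, the class highest in Tgfbr1.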
